A study of Arabidopsis thaliana with 6 samples.

Results

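The glutamate receptor-like (GLR) genes of Arabidopsis thaliana encode cation channels of the plasma membrane and of organelles. They were chosen as the probe sets whose platform annotation lists 1 gene with a symbol of GLR followed by a number, which gave 7 of the 22746 probe sets tested. The members were GLR3.3, GLR3.5 and GLR3.6 of clade 3, GLR2.7, GLR2.8 and GLR2.9 of clade 2, and GLR1.4 of clade 1. The TAIR10.1 gene table names 20 GLR genes, of which 7 are in clade 3, 9 in clade 2 and 4 in clade 1. ATGLR1.2 has a probe set of its own, but its symbol lies outside the rule, and its values are given beside those of the members. A further probe set is annotated to both GLR2.2 and GLR2.3 and was not used, and the other 10 genes have no probe set named here.

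The samples were leaf pools of ecotype Colombia, 5 weeks old and grown in soil with 10 h of light a day, each hybridised to 1 Affymetrix array. Control leaves came from unwounded plants. Local leaves were rosette leaves clamped with tweezers across the midvein, and systemic leaves were unwounded leaves of the wounded plants, both harvested at 10 min. Each group had 2 arrays, which the labels call biological replicates, and each pool held leaves of 3 plants, so that the spread between single plants was not measured. The labels name no mutation or transgene in any group. Levels are RMA expression values on a log2 scale, and differences are log2 differences with the moderated standard error (SE) of a limma fit over all 6 arrays.

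GLR channels are related to the ionotropic glutamate receptors of animals and are opened by amino acids. After wounding, glutamate released in the leaf is known to act through clade 3 channels, which carry membrane depolarisation and calcium waves along the vasculature to other leaves and precede jasmonate synthesis there. GLR3.3 is known from the phloem and GLR3.6 from cells beside the xylem, and plants that lack both lose most of the electrical signal in distant leaves. The GLR2.7, GLR2.8 and GLR2.9 genes lie next to each other on chromosome 2 with no gene between them, and together they contribute to the calcium influx that follows detection of microbial patterns.

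GLR2.7 was the only member called at an adjusted p under 0.05 by limma. Its transcript rose in wounded leaves by 1.98-fold over control (95% interval 1.70 to 2.30) and stood 2.23-fold higher there than in systemic leaves (95% interval 1.92 to 2.60). GLR3.3, GLR3.6 and GLR3.5 were not past the threshold in any of the 3 comparisons, nor were GLR2.8, GLR2.9 and GLR1.4. In local against control leaves 1 of 7 members was called higher and none lower at an adjusted p under 0.05, while 23.6% of all probe sets were called in either direction and 9.92% higher (42.0% of the calls, or 54.8% after cyclic loess normalization). In systemic against control leaves 0 of 7 were called by limma, and none had an unadjusted p under 0.05 (the lowest was 0.069, for GLR1.4), against 8.4% of all probe sets called in either direction and 4.73% called higher. In local against systemic leaves 1 of 7 was called, higher, against 9.7% of all probe sets in either direction and 4.77% higher (49.1% of the calls, or 60.5% after cyclic loess). In both comparisons of local leaves the member called was GLR2.7. Its share of the 7 (14.3%) is above the share of all probe sets called higher but rests on 1 gene. These counts are no result about the family as a whole.

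**Figure D1:**
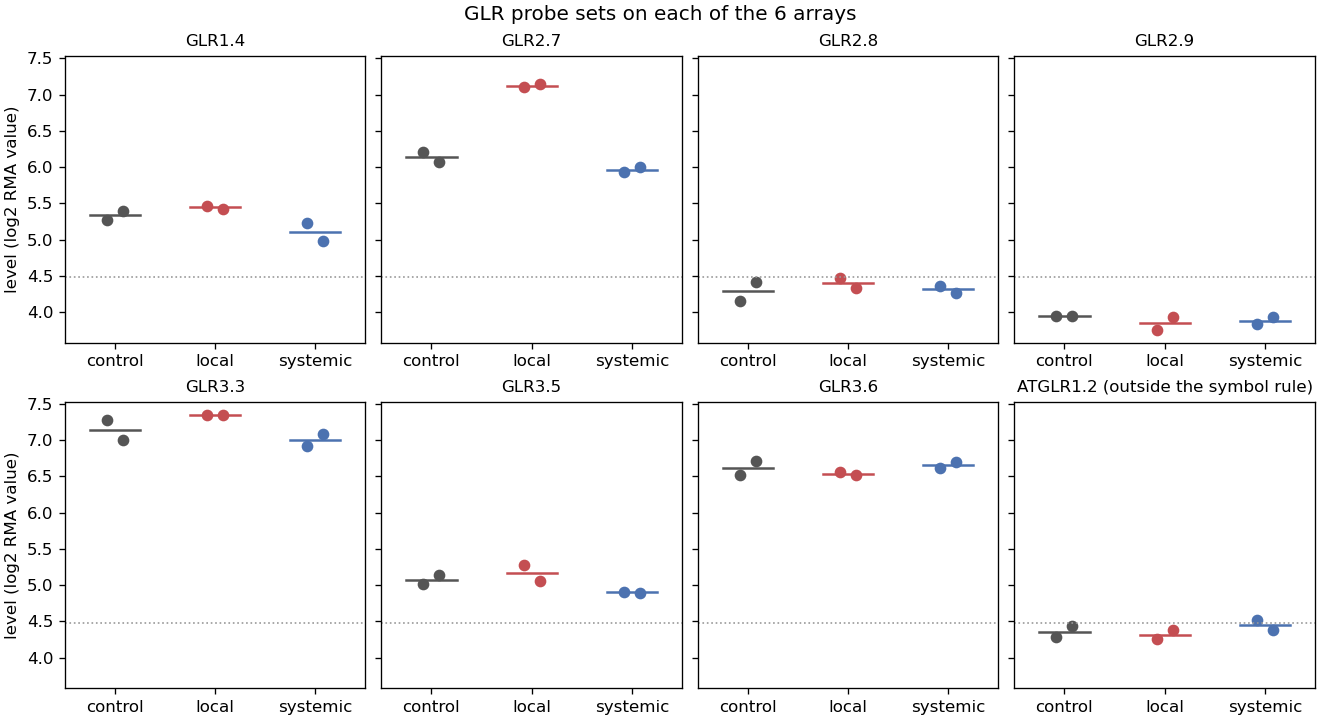
Level (log2 RMA value) of each GLR probe set on the 6 arrays, by group; points are arrays, short lines are means of 2 arrays, and the dotted line is the highest lower quartile of any array (4.48). Both local arrays of GLR2.7 lie above its 4 other arrays, while the 6 points of any other gene lie within 0.49 of each other.

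The 3 clade 3 members were the channels of direct interest for wound signalling. GLR3.3 stood at 7.29 and 7.01 on the control arrays, 7.35 and 7.34 on the local arrays, and 6.92 and 7.08 on the systemic arrays. Both local arrays lay above all others, by 0.06 over the higher control array, and the control and systemic arrays overlapped. The order of its means was local (7.35 ± 0.01), control (7.15 ± 0.20) and systemic (7.00 ± 0.11, SD, n = 2 each). No difference between neighbours in that order was past the threshold. Local leaves differed from control by 0.20 ± 0.12 (adjusted p = 0.29 by limma), a fold of 1.15 with a 95% interval of 0.95 to 1.39. After cyclic loess normalization this local difference was 0.30 (adjusted p = 0.092 by limma). Systemic leaves differed from control by -0.14 ± 0.12 (adjusted p = 0.57), with a 95% interval of the log2 difference from -0.42 to 0.13. The control arrays of GLR3.3 lay 0.28 apart, and the local difference was 0.34 without control replicate 1 and 0.06 without control replicate 2, neither past the threshold.

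GLR3.6, the channel of xylem-contact cells, was the steadier of the pair. It stood at 6.52 and 6.72 in control, 6.56 and 6.52 in local, and 6.61 and 6.70 in systemic leaves. All 6 arrays lay within 0.20 of each other, and the control arrays alone spanned nearly all of that range. The mean of control leaves was 6.62 ± 0.14, that of local leaves 6.54 ± 0.03 and that of systemic leaves 6.65 ± 0.06. The local difference was -0.08 ± 0.10 (adjusted p = 0.66 by limma), with a fold between 0.80 and 1.11 in its 95% interval. It turned to 0.01 after cyclic loess, so no direction is given for it. The systemic difference was 0.03 ± 0.10 (adjusted p = 0.90), with a fold between 0.87 and 1.21.

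GLR3.5, which is known for isoforms that reach chloroplasts and mitochondria, had lower signals. Its levels were 5.01 and 5.14 in control, 5.28 and 5.05 in local, and 4.89 and 4.91 in systemic leaves. Both systemic arrays were below the other 4, and local and control overlapped. The difference was 0.09 ± 0.11 in local (adjusted p = 0.64 by limma) and -0.18 ± 0.11 in systemic leaves (adjusted p = 0.41). Its gene is adjacent to that of GLR3.7 in the TAIR10.1 gene table, and GLR3.7 has no probe set named here.

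Set against systemic leaves, the arrays of the 3 clade 3 members did not overlap in any case, as in 53.4% of all probe sets. GLR3.3 was 0.34 ± 0.12 and GLR3.5 0.27 ± 0.11 above their systemic level in local leaves, with unadjusted p-values of 0.020 and 0.040 and adjusted p = 0.12 and 0.19 by limma. GLR3.6 went the other way, at -0.12 ± 0.10 (adjusted p = 0.59). None passed over all probe sets, and the 95% interval of the fold of GLR3.3 ran from 1.05 to 1.54. After cyclic loess normalization GLR3.3 was 0.40 above its systemic level (adjusted p = 0.062 by limma).

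**Figure D2:**
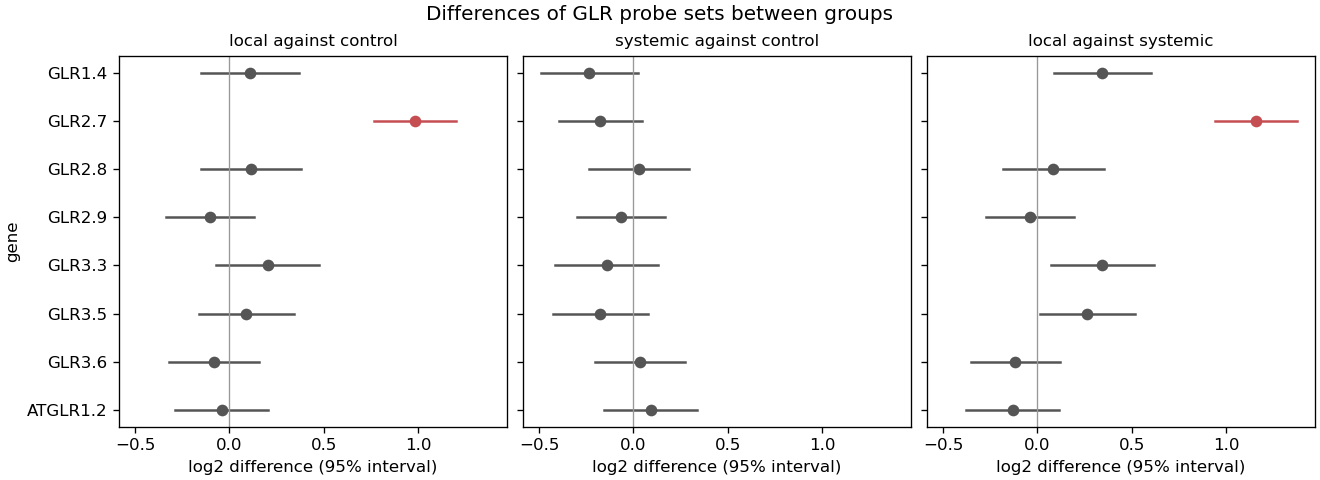
Log2 difference of each GLR probe set in the 3 comparisons, with the 95% interval of the moderated fit over 6 arrays; red marks an adjusted p under 0.05. GLR2.7 in local against control (0.98) and in local against systemic leaves (1.16) is past the threshold, and no interval in systemic against control excludes 0.

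Within clade 2, GLR2.7 stood at 6.20 and 6.07 on the control arrays, 7.10 and 7.14 on the local arrays, and 5.93 and 6.00 on the systemic arrays. Both local arrays lay 0.90 or more above every other array, and both systemic arrays lay just below the control arrays. The mean of local leaves was 7.12 ± 0.03, that of control leaves 6.14 ± 0.09 and that of systemic leaves 5.96 ± 0.05 (SD, n = 2 each). The rise in local leaves was 0.98 ± 0.09 (SE, adjusted p = 0.00029 by limma), and local leaves were 1.16 ± 0.09 above systemic ones (adjusted p = 0.00062). Systemic leaves differed from control by -0.18 ± 0.09 (adjusted p = 0.34 by limma), with a 95% interval of the fold from 0.76 to 1.03. The order of the levels was therefore local above control and systemic, and the difference between the latter 2 was not past the threshold. Over 14 alternative settings the local rise lay between 0.92 and 1.08 and was called in each, with adjusted p between 0.00015 and 0.0037.

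Differences of this size or more were uncommon on the arrays. In local against control leaves 5.33% of all probe sets had a larger absolute difference, and in local against systemic leaves 1.82% had. Among the 1137 probe sets of like mean level (6.26 to 6.74), the 95th percentile of the difference was 0.96 in local against control and 0.79 in local against systemic leaves. The replicate SD of GLR2.7, pooled over the 3 groups, was 0.062, lower than that of most probe sets (percentile 18.5).

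The neighbours of GLR2.7 in the tandem cluster gave dim signals. GLR2.8 stood at 4.16 and 4.41 in control, 4.47 and 4.34 in local, and 4.36 and 4.27 in systemic leaves. Local and control arrays overlapped, and 5 of 6 arrays were below the lower quartile of their array. The local difference was 0.12 ± 0.11 (adjusted p = 0.56 by limma), with a 95% interval of -0.15 to 0.38 that does not reach that of GLR2.7 (0.77 to 1.20). GLR2.9 stood between 3.76 and 3.95 on all 6 arrays, each below the lower quartile of its array. Its local difference was -0.10 ± 0.10 (adjusted p = 0.55) and its systemic difference -0.06 ± 0.10 (adjusted p = 0.79). RMA values this low cannot be told from background and compress differences, so that a change of GLR2.8 or GLR2.9 may not have been detectable at these signals. Whether the 3 neighbours differ in their response was not tested.

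In clade 1, GLR1.4, which forms a channel opened by methionine when expressed in frog oocytes, stood at 5.28 and 5.40 in control, 5.47 and 5.43 in local, and 5.23 and 4.98 in systemic leaves. The order of its means was local, control and systemic, and no groups overlapped. The systemic difference from control was -0.23 ± 0.11 (adjusted p = 0.27 by limma), and the local difference was 0.11 ± 0.11 (adjusted p = 0.57). Local leaves were 0.34 ± 0.11 above systemic ones, with an unadjusted p of 0.015 and an adjusted p = 0.10. ATGLR1.2, whose product acts in calcium signals of pollen tubes, stood between 4.25 and 4.52, below the lower quartile on 5 of 6 arrays, and differed by -0.04 ± 0.11 in local and 0.09 ± 0.11 in systemic leaves (adjusted p = 0.85 and 0.71).

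By clade, the median difference in local against control leaves was 0.09 over the 3 clade 3 members and 0.11 over the 4 of clades 1 and 2, beside -0.04 over all probe sets. In systemic against control leaves both medians were below 0, at -0.14 and -0.12, beside -0.02 over all probe sets. The one member called, GLR2.7, is in clade 2, and in both comparisons the medians of the clades were close. Groups of 4 of the 7 members did not overlap in local against control leaves, and of 4 in systemic against control leaves, where 59.3% and 50.7% of all probe sets had such groups. Both comparisons share the control arrays.

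**Figure D3:**
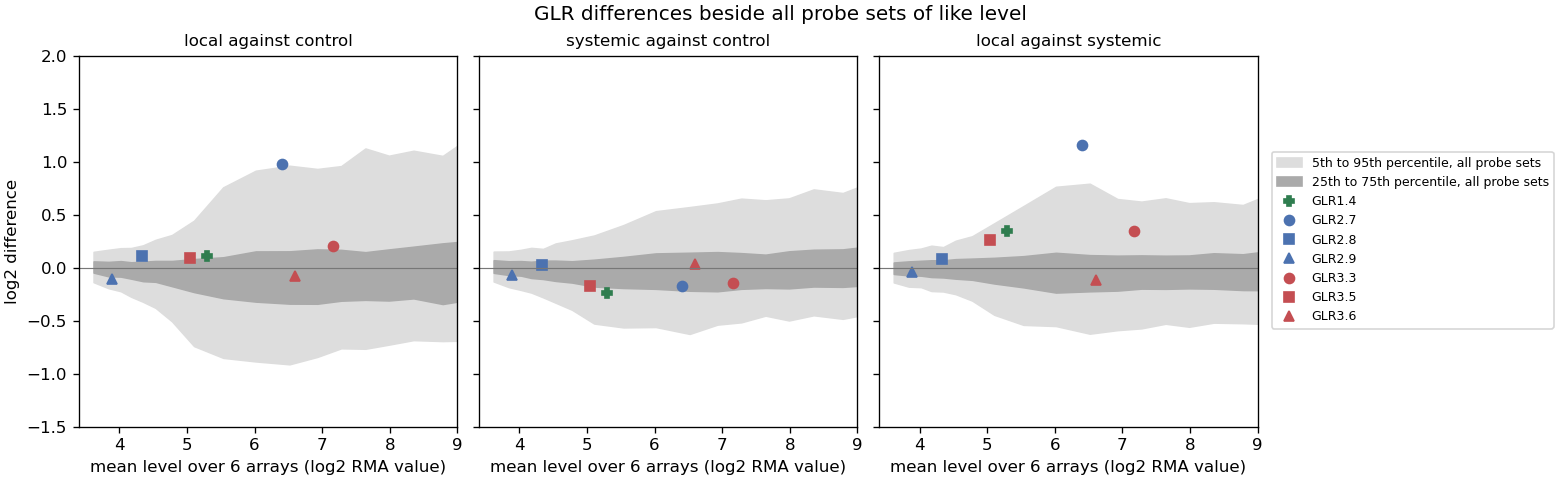
Log2 difference of the 7 GLR members (green clade 1, blue clade 2, red clade 3) against their mean level over 6 arrays, with the 5th to 95th and 25th to 75th percentile of all probe sets in 20 bins of level. In local against systemic leaves GLR2.7 lies above the 95th percentile of its bin (0.79), and GLR3.3 and GLR3.6 lie inside theirs.

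The genes most like GLR2.7 over the 6 arrays were sought among probe sets with 1 listed gene, by the root mean square difference of values centred on each gene's own mean. They were AT5G39030 (0.08), nad4L (0.10), nad9 (0.10), AT5G44290 (0.13) and AT4G05170 (0.13). The genes nad4L and nad9 are encoded in the mitochondrion and specify subunits of respiratory complex I. In local against control leaves nad4L rose by 0.90 and nad9 by 0.83 (adjusted p = 0.00058 and 0.00048 by limma), and AT5G39030 rose by 1.13 (adjusted p = 0.00024). In systemic leaves the 5 genes differed from control by between -0.20 and 0.07, none past the threshold. The 5 genes were chosen for their likeness to GLR2.7 on these same arrays. Their rises and adjusted p-values follow from that choice and are no separate evidence. Among the members themselves the nearest to GLR2.7 was GLR3.3, at 0.38, and the nearest pair was GLR1.4 and GLR3.5, at 0.09.

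**Figure D4:**
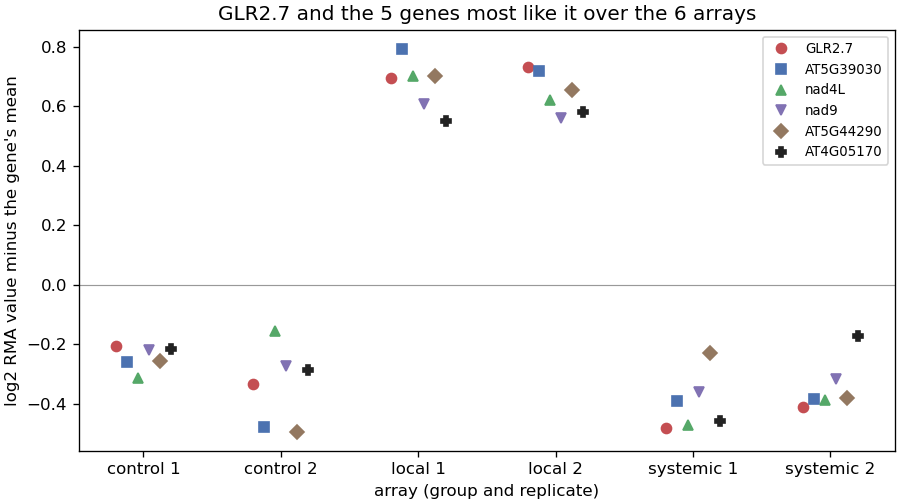
Log2 RMA value minus the gene's mean over 6 arrays, for GLR2.7 and the 5 genes with the smallest root mean square difference from it (0.08 to 0.13). All 6 genes are high on the 2 local arrays and low on the 4 control and systemic arrays, which follows from how the 5 were chosen.

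Other measures also differed in the local group, not all of them in the pattern of GLR2.7, and their part in its rise was not tested. On both local arrays the ubiquitin controls gave a smaller gap between their 3' and 5' probe sets, a measure that reflects RNA integrity and labelling, at 0.97 and 1.05 against 1.23 to 1.33 on the other 4. Of 8 listed phloem markers 2 were measured, and their mean level was 7.83 and 7.87 for local, 7.31 and 7.58 for control and 7.61 and 7.70 for systemic arrays. The phloem sucrose transporter gene SWEET11 rose by 0.79 ± 0.16 in local leaves (adjusted p = 0.011 by limma), a call lost without local replicate 2 (0.74). In local against systemic leaves SWEET11 differed by 0.48 ± 0.16 (adjusted p = 0.12 by limma, and 0.038 with only the 4 arrays compared). OPS, a gene of protophloem, differed by 0.01 ± 0.09 in local leaves. Its group means of 4.24 to 4.35 lay below the lower quartile of every array (4.41 or more), so a change may not have been detectable. Of 8 mesophyll markers 3 were measured, RCA, LHCB4.1 and LHCB4.2, with mean levels of 14.10 to 14.60 in all groups and none called, as leaf tissue has. These levels lie near the highest mean level of any probe set (14.63), so a change may not have been detectable. Other markers fell in both leaves of wounded plants. In the guard cell lineage list this was 1 of 3 measured markers, SPCH, which fell by 0.92 in local and by 0.73 in systemic leaves (adjusted p = 0.00041 and 0.0039 by limma). In systemic leaves FMA and MUTE differed by 0.15 and -0.27 without passing. In local leaves they differed by -0.29 and -0.32, also without passing. FMA was called there without control replicate 1 (-0.53), and MUTE with the replicate number as a block (adjusted p = 0.044 by limma). PYK10, the 1 measured gene of the root list, fell by 3.25 in local and fell by 3.08 in systemic leaves (adjusted p = 6.5e-05 and 0.0005), and AUR1, the 1 measured marker of dividing cells, fell by 0.89 and fell by 0.67 (adjusted p = 0.00056 and 0.0061). TRY, the 1 measured epidermis and trichome marker, differed by 0.34 and 0.46 (adjusted p = 0.13 and 0.099 by limma). Its systemic difference was called with the replicate number as a block (adjusted p = 0.043 by limma). The xylem list had no measured member, so that the tissue of GLR3.6 could not be followed. In such pools, a change in the share of a cell type and a change in RNA per cell cannot be told apart.

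Genes known to act around the GLR channels were largely outside the annotation used here. None of the 30 listed ion channels, pumps and oxidases of wound electrical and calcium signals had a probe set named here, and none of the 15 genes of glutamate metabolism and transport. Of 21 early jasmonate genes, listed as known outputs of clade 3 signalling, 3 were measured. Whether they depended on these channels in these leaves was not tested. The 3 measured genes rose in local and in systemic leaves, where 9.92% and 4.73% of all probe sets were called higher. They were ORA47, an AP2/ERF activator of jasmonate synthesis, OPCL1, a CoA ligase of jasmonate precursors, and JMT, which methylates jasmonic acid. The adjusted p in local and systemic leaves was 2.2e-05 and 0.00067 for ORA47, 0.00012 and 0.0081 for OPCL1, and 6.7e-05 and 0.015 for JMT by limma. The systemic call of JMT was lost without control replicate 1 (adjusted p = 0.066), systemic replicate 1 (0.054) or systemic replicate 2 (0.088). The median difference of the 3 genes was 2.79 in local and 1.42 in systemic leaves, beside -0.04 and -0.02 over all probe sets, on the same arrays on which GLR3.3 and GLR3.6 differed from control by between -0.14 and 0.20. This list was chosen with earlier results of these arrays known, and its direction is no independent evidence.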

How the data were processed

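The deposited values are on a log2 scale, 1 per probe set and array. RMA and Affymetrix Expression Console are the tools named for them, without versions, per the submitters' processing notes. Labelling started from 6 µg of total RNA, per the labels' protocols. RMA sets all arrays to the same distribution, so a change of all transcripts one way would not be seen. The table has no detection calls, and the array number limits precision. Array medians lay between 6.22 and 6.29.

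Of 22810 probe sets, 64 array controls were left out, and 22746 were fitted unfiltered with limma 3.58.1 (R 4.3.3) on group means, with 3 residual degrees of freedom and 4.85 from moderation. Tests were two-sided and adjusted by Benjamini-Hochberg over all. Genes were named from the platform annotation through Entrez numbers and the TAIR10.1 gene table: 1 gene was listed for 13513 probe sets, several for 503 and none for 8730. Where a listed gene had several probe sets, the one with the highest mean stood for it. The fit was tested on simulated data. Every member was described, with the 5 genes most like each member called against control. Members and lists (115 genes, 14 measured) were chosen with earlier results of these data known. The listed FDH was meant as FIDDLEHEAD, which has no probe set named here. Same-numbered arrays deviated together over probe sets with r = 0.14 (control and local), 0.02 (control and systemic) and 0.20 (local and systemic). Replicate numbers were not taken to pair samples, though these values cannot show whether local and systemic pools shared plants. Alternatives are given in the closing section. The order of neighbouring genes was read from the TAIR10.1 gene table, and no sequences were used here.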

Additional observations from a re-analysis of the deposited data

How the results depend on the processing

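Over 312 recomputed values of the 8 GLR probe sets under up to 14 settings (a replicate block, cyclic loess, median centring, 2 filters on low values, trended or robust variance moderation, the 4 arrays compared, each array left out), every call and every lack of a call was kept. In 12 of them the sign of a value that was not past the threshold turned, for GLR2.8, GLR2.9, GLR3.5, GLR3.6 and ATGLR1.2. GLR2.8, GLR2.9 and ATGLR1.2 were left out by the filter at the 25th percentile, and GLR1.4 and GLR3.5 also by that at the median. With the replicate number as a block, 5702, 2207 and 2546 probe sets were called in local against control, systemic against control and local against systemic leaves (5374, 1911 and 2206 without it), and GLR2.7 kept its calls (adjusted p = 0.00053 and 0.00093 by limma). With 1 array left out, the counts ranged from 2823 to 5040, from 787 to 1581 and from 558 to 2329, where a lone array is assumed to vary like the other groups. The lowest counts were those without local replicate 1, systemic replicate 1 and local replicate 1. The count in systemic against control was also more than 1.5 times lower without control replicate 1 (1246) and systemic replicate 2 (1081), and in local against systemic without systemic replicate 1 (1186) and 2 (780). Leaving out an array of the group not compared gave the same values as comparing only the 4 arrays. Those settings are therefore not separate checks. Fewer arrays leave fewer degrees of freedom. Differences of GLR2.8, GLR2.9 and ATGLR1.2 are limited by signals near background.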
